A study of Mus musculus with 64 samples.

Results

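The 33 genes described here are genes with known high expression in astrocytes, and they were examined by bulk RNA sequencing in the prefrontal cortex (PFC) and the whole hypothalamus of mice. They were taken from the gene count table by symbol, and each of the 33 symbols matched 1 of the 55401 rows, with all 33 passing the filter on low counts. The animals were male C57BL/6J mice on chow, 10 weeks old at the start and housed in groups, without any transgene. Each mouse received 1 intraperitoneal injection, either psilocybin at 3 mg/kg or isotonic saline, and was killed by decapitation in the morning at 3 h or 4 weeks afterwards. Region, treatment and time gave 8 groups of 8 samples from 32 mice. Each mouse gave both regions, and samples of the same treatment, time and number were taken to come from 1 mouse. The mice killed at 4 weeks were also older and further from handling than those killed at 3 h, and these differences cannot be told apart from time. PFC is the name of the cortical samples in the extraction protocol, and their labels read Frontal Cortex.

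Astrocytes clear glutamate and GABA from the space around synapses, convert glutamate to glutamine for return to neurons, buffer potassium and water, and are coupled to each other by gap junctions. They also secrete lipoproteins and peptide precursors, bind zinc and copper in metallothioneins, and respond to noradrenaline and glucocorticoids. Astrocytes of different brain regions are known to differ in their transporters and secreted products. In tissue RNA, fewer astrocytes and less RNA per astrocyte cannot be told apart. By role, the list has 6 genes of astrocyte identity (Gfap, Aldh1l1, S100b, Sox9, Id4 and Ndrg2), 6 of transmitter and amino acid handling (Slc1a2, Slc1a3, Glul, Slc6a11, Slc6a9 and Slc7a10) and 7 of ion and water balance and cell contact (Aqp4, Gja1, Gjb6, Slc4a4, Atp1b2, Mlc1 and Hepacam). The others are 3 receptors (Fgfr3, Ntsr2 and Bmpr1b), 5 genes of secreted or surface proteins (Agt, Apoe, Clu, Sparcl1 and F3), 4 of metal binding and transport (Mt1, Mt2, Mt3 and Slc39a12) and 2 of metabolism (Acsbg1 and Cbs).

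Of the 64 libraries, 62 held at least 1000000 counted reads and were used, with 8061033 to 70361839 counts each (median 18287978.5). The vesicular glutamate transporter Slc17a7 was at 1059 to 1575 CPM (counts scaled to a common library total of 1000000) in PFC libraries and 8.87 to 102 CPM in hypothalamus libraries, and Slc17a6 was at 7.02 to 28.2 and 220 to 376 CPM, so the 31 libraries of each region separated by both genes. The striatal gene Drd2 reached 76.3 CPM in 1 PFC library, against a median of 1.35 CPM. Hypothalamus psilocybin 4 weeks replicate 5 stood apart, with the lowest quality weight in a voom fit (0.0276), and PFC psilocybin 3 h replicate 7 (0.12) and PFC saline 3 h replicates 3, 4 and 5 (0.275, 0.323 and 0.286) followed. In astrocyte levels replicate 4 was the highest of its extraction pool, replicate 3 was among the 4 of 15 libraries of that pool above the regional mean and replicate 5 was the lowest of its own pool, and whether their numbers in the labels are right was not tested. RNA was extracted in 4 pools, A and B in the hypothalamus and C and D in the PFC, with cages 1 to 4 in A and C and cages 5 to 8 in B and D, so extraction pool and cage cannot be told apart.

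Per kilobase of gene length, the 33 genes spanned a wide range of levels in both regions. Sparcl1, which encodes a secreted matrix protein that astrocytes supply to synapses, had the highest level, with 857 ± 112 CPM per kb in the PFC and 932 ± 90.6 in the hypothalamus (SD, n = 31 libraries each). In the PFC it was followed by Glul (710 ± 164), the glutamine synthetase gene, and Apoe (681 ± 232), the main brain apolipoprotein. The gaps between neighbours were 147 and 29.5 CPM per kb, each smaller than the larger SD of the pair. Slc1a2 came next at 348 ± 44.9 CPM per kb, Ndrg2 at 307 ± 66.6 and Clu at 297 ± 73.5, again without separation beyond the SDs. The lowest levels per length in the PFC were those of Slc6a9 (4.29 ± 0.682), a glycine transporter gene, and Agt (4.61 ± 2.17). In the hypothalamus the order behind Sparcl1 was Apoe (802 ± 390), Ndrg2 (486 ± 82.2) and Glul (414 ± 66.2), with gaps between neighbours below the larger SD. The SD of Apoe included hypothalamus psilocybin 4 weeks replicate 5 at 5915 CPM, where the other hypothalamus libraries were at 1092 to 2100 CPM. Whether Apoe and Ndrg2 separated without that library was not computed. Agt stood at rank 9 in this region with 164 ± 41.7 CPM per kb. Bmpr1b (5.61 ± 0.922) and Cbs (6.2 ± 1.10) were lowest there. Together the 33 genes made up 1.35 to 2.41% of the scaled counts in PFC libraries and 1.37 to 2.28% in hypothalamus libraries, so the summed levels of the regions overlapped.

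The first comparison asked how the astrocyte genes differed between PFC and hypothalamus in mice of the same treatment and time. The PFC held more mRNA of the glutamate transporters Slc1a2 (GLT-1) and Slc1a3 (GLAST) and of glutamine synthetase, whereas Agt and the GABA and glycine transporter genes Slc6a11 (GAT-3) and Slc6a9 (GlyT1) were higher in the hypothalamus by mean folds of 35.5, 5.16 and 3.4. In saline mice at 3 h, 5 of the 33 genes were higher and 14 lower in the PFC, where 54.9% of the 18971 genes tested differed (29.1% higher, 25.8% lower; edgeR quasi-likelihood test, adjusted p under 0.05). At 4 weeks after saline the counts were 3 higher and 18 lower (55.2% of all genes differed, 29.5% higher and 25.7% lower). After psilocybin they were 5 and 13 at 3 h (56.2%, of which 29.5% higher and 26.8% lower) and 3 and 24 at 4 weeks (58%, of which 28.6% higher and 29.4% lower). The median log2 difference of the 33 was -0.15, -0.34, -0.06 and -0.43 in these 4 sets of mice, against 0.03, 0.04, 0.02 and -0.0027 over all genes. In all 4 sets 15 of the 33 genes were called the same way, 3 higher and 12 lower in the PFC, against 39.3% of all genes tested.

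**Figure D1:**
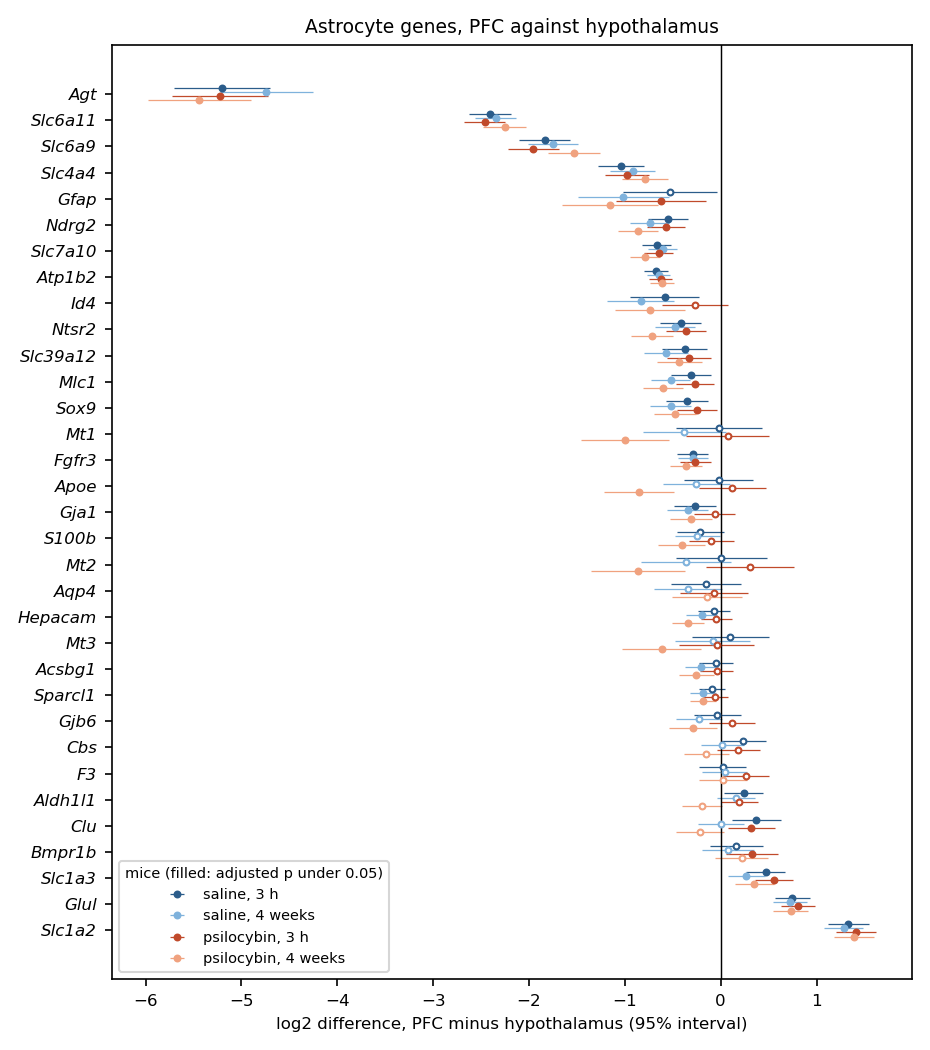
Log2 difference of PFC minus hypothalamus (x axis) for each of the 33 genes (y axis, ordered by the mean of 4 comparisons), with points for saline and psilocybin mice at 3 h and 4 weeks, bars for 95% intervals and filled points for adjusted p under 0.05. Agt, Slc6a11 and Slc6a9 lie furthest to the left and Slc1a3, Glul and Slc1a2 furthest to the right in all 4 comparisons.

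Of the 6 genes of transmitter and amino acid handling, Slc1a2 had the largest difference towards the PFC among all members. Slc6a11 had the largest towards the hypothalamus after Agt. Slc1a2 (chr2:102658659-102790784 in GRCm38, plus strand), whose product removes most glutamate from the forebrain synaptic space, was at 3837 CPM (lowest), 4631 (median) and 5302 (highest) in PFC saline 3 h libraries and at 1419, 1842 and 2056 CPM in hypothalamus saline 3 h libraries. Over all groups, the 31 PFC libraries lay between 3431 and 6193 CPM and the 31 hypothalamus libraries between 799 and 2231 CPM, so the regions did not overlap, which held for 6.57% of all genes in this direction. The log2 difference was 1.33 ± 0.109 (SE) in saline mice at 3 h and 1.28 to 1.41 in the 4 sets of mice (adjusted p at most 2.12e-16 in each).

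Glul (chr1:153899944-153909723, plus strand) was at 1900, 3054 and 3571 CPM (lowest, median, highest) in PFC saline 3 h and at 1439, 1767 and 2123 CPM in hypothalamus saline 3 h. Most PFC libraries were higher, but these ranges overlapped, whereas in the other 3 sets of mice they did not. The log2 difference of Glul was 0.75 ± 0.0947 in saline mice at 3 h (adjusted p = 6.6e-10) and 0.72 to 0.81 over the 4 sets. Slc1a3 was also higher in the PFC in all 4, with log2 differences of 0.27 to 0.56 and overlapping libraries.

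Slc6a11 (chr6:114131241-114249952, plus strand) went the other way, with 156, 184 and 237 CPM in PFC saline 3 h and 913, 1015 and 1241 CPM in hypothalamus saline 3 h. All 31 PFC libraries (155 to 301 CPM) lay below all 31 hypothalamus libraries (466 to 1241 CPM). The log2 difference was -2.41 ± 0.113 in saline mice at 3 h and -2.46 to -2.25 over the 4 sets (adjusted p at most 3.82e-27 after saline and 2.98e-25 after psilocybin). Slc6a9 was at 15.7 to 30.9 CPM in the PFC and 20.7 to 84.8 CPM in the hypothalamus, where all libraries but hypothalamus psilocybin 4 weeks replicate 5 (20.7 CPM) lay above the PFC, with log2 differences of -1.95 to -1.53. Slc7a10, which encodes the D-serine and alanine exchanger Asc-1, was lower in every PFC library (26.9 to 39.6 CPM) than in any hypothalamus library (42.0 to 73.0 CPM), a mean log2 difference of -0.68. Slc6a9 and Slc7a10 overlap the genes B4galt2 and Lrp3 on the opposite strand, whose counts were 155% and 192% of theirs, so shared reads could affect both values where counting did not separate strands.

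**Figure D2:**
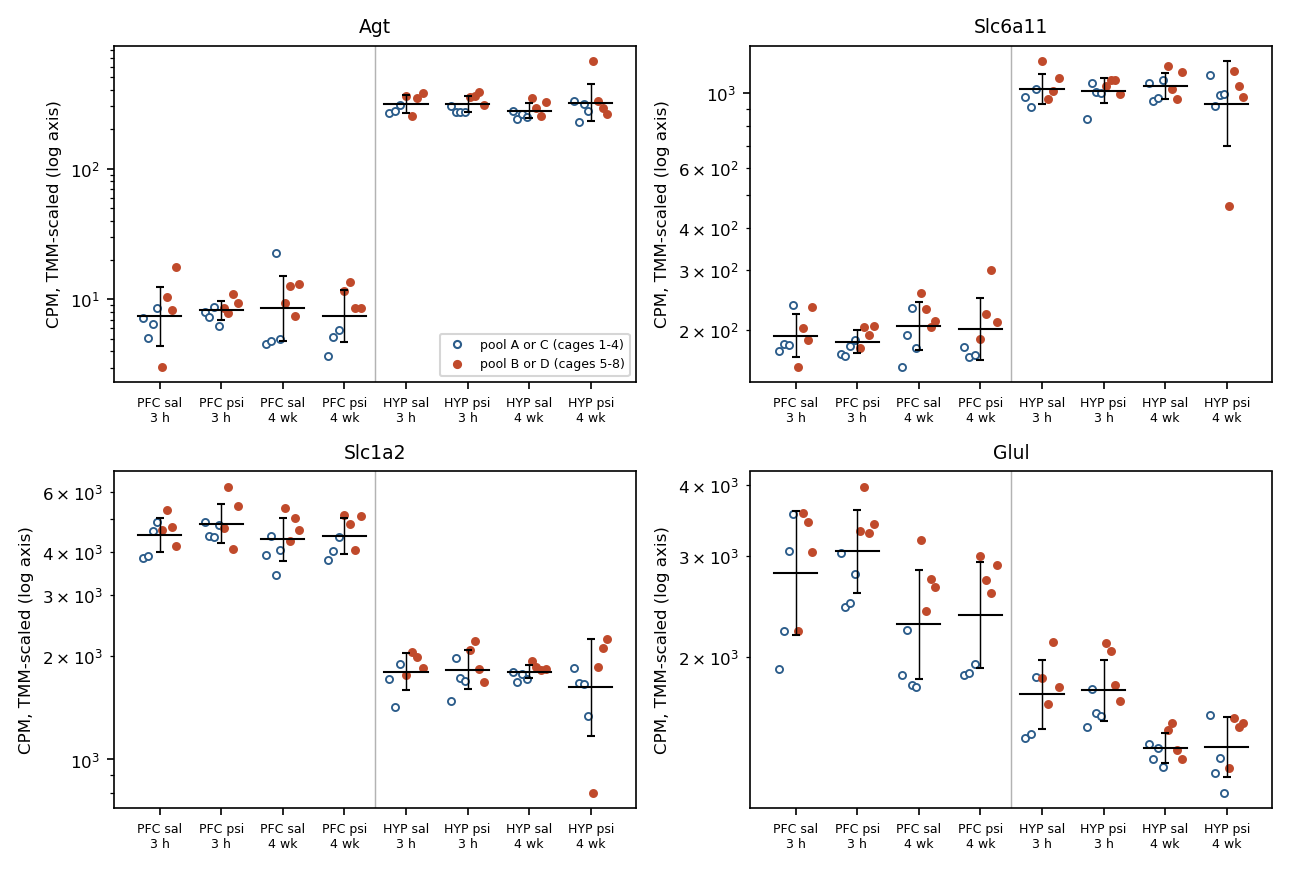
TMM-scaled CPM (log y axis) of Agt, Slc6a11, Slc1a2 and Glul in each library of the 8 groups (x axis; HYP, hypothalamus; sal, saline; psi, psilocybin), with open points for pools A and C, filled points for pools B and D, and lines and bars for the mean and SD of log2 CPM. Agt and Slc6a11 are lower and Slc1a2 is higher in every PFC library than in any hypothalamus library, and Glul overlaps.

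Agt (chr8:124556534-124569706, minus strand), which encodes angiotensinogen, the precursor of the angiotensin peptides, had the largest regional difference of the 33. Its level was 3.04, 7.71 and 17.7 CPM (lowest, median, highest) in PFC saline 3 h and 254, 304 and 382 CPM in hypothalamus saline 3 h. No PFC library exceeded 22.6 CPM and no hypothalamus library was below 227 CPM, a separation in this direction seen for 4.69% of all genes. The log2 differences were -5.44 to -4.74 in the 4 sets of mice (adjusted p at most 2.84e-24). The other secreted products were closer together. Apoe was called lower in the PFC in psilocybin mice at 4 weeks, Sparcl1 lower in both sets at 4 weeks, and Clu, which encodes a secreted chaperone, higher in both sets at 3 h. F3, the tissue factor gene, was called in none. The mean log2 differences over the 4 sets were -0.25 for Apoe, -0.13 for Sparcl1, 0.12 for Clu and 0.09 for F3.

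Of the genes of ion and water balance and cell contact, Slc4a4, the electrogenic sodium bicarbonate cotransporter, and Atp1b2, an astrocyte subunit of the sodium pump, were lower in the PFC in all 4 sets, with mean log2 differences of -0.93 and -0.64. Slc4a4 was at 158, 201 and 246 CPM in PFC saline 3 h and 333, 417 and 439 CPM in hypothalamus saline 3 h, groups that did not overlap. Mlc1, which is mutated in a vacuolating white matter disease together with its partner Hepacam, was also lower in all 4 (mean -0.42). Gja1 (connexin 43) was lower in 3 sets, Hepacam in 2 and Gjb6 (connexin 30) in 1, and Aqp4, the water channel of the end-feet, was called in none. Their mean log2 differences were -0.25 (Gja1), -0.16 (Hepacam), -0.11 (Gjb6) and -0.18 (Aqp4).

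Among the identity genes, Ndrg2 (mean log2 difference -0.68) and the transcription factor gene Sox9 (-0.40) were lower in the PFC in all 4 sets. Gfap, the intermediate filament gene, was at 86.8, 274 and 391 CPM in PFC saline 3 h and 215, 351 and 616 CPM in hypothalamus saline 3 h. These Gfap ranges overlapped widely, and its difference was called in the 3 sets other than saline at 3 h (log2 -0.53 there, -1.16 to -0.62 in the others). Id4, a helix-loop-helix regulator, was called lower in 3 sets and S100b in 1, while Aldh1l1, a folate enzyme gene widely used as an astrocyte marker, was called higher in 1. Their mean log2 differences were -0.61 (Id4), -0.24 (S100b) and 0.10 (Aldh1l1). S100b overlaps Dip2a on the opposite strand, whose counts were 52.5% of its own. The receptor genes Ntsr2 and Fgfr3 were lower in all 4 (mean -0.49 and -0.30), and Bmpr1b was called higher in psilocybin mice at 3 h alone (0.33 there, mean 0.20). Slc39a12, a zinc importer, was lower in all 4 (mean -0.43). The fatty acid ligase gene Acsbg1 was called lower in 2 sets (mean -0.14), and Cbs, which makes cystathionine, in none (mean 0.07).

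Mt1, Mt2 and Mt3 were called lower in the PFC only in psilocybin mice at 4 weeks, and there 1 hypothalamus library weighed on the value. Without hypothalamus psilocybin 4 weeks replicate 5, the log2 difference of Mt2 moved from -0.86 to -0.28 (adjusted p = 0.156), that of Mt3 from -0.62 to -0.10 (adjusted p = 0.496) and that of Mt1 from -0.99 to -0.49 (adjusted p = 0.0101). S100b (-0.41 to -0.23, adjusted p = 0.0534) and Gjb6 (-0.29 to -0.26, adjusted p = 0.0919) also lost their calls without it, and Apoe kept its call at -0.52 instead of -0.85. With the mouse as a block, the counts of called members were 20, 21, 17 and 26 in saline 3 h, saline 4 weeks, psilocybin 3 h and psilocybin 4 weeks, where 53.3%, 55%, 55.4% and 54.8% of all genes were called. In that fit Gfap in saline 3 h, Gjb6 in saline 4 weeks and F3 in psilocybin 3 h gained a call, and Hepacam, Sox9 with Bmpr1b, and Mt3 lost theirs in saline 4 weeks, psilocybin 3 h and psilocybin 4 weeks. Other cell types also differed between regions: in saline mice at 3 h, 12 of 12 microglia genes were higher and 10 of 12 oligodendrocyte genes lower in the PFC. The part of cell composition in the differences of the 33 genes was not tested. Of 26 further astrocyte genes, 10 were higher and 8 lower in saline mice at 3 h, with a median of 0.01.

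The second comparison set mice killed at 4 weeks against mice killed at 3 h, within each region and treatment. In the PFC, Gjb6, Glul and F3 were lower at 4 weeks after saline as well as after psilocybin, and the metallothionein genes Mt1 and Mt2, Fgfr3, Hepacam and Aldh1l1 were lower after psilocybin. After saline 3 of the 33 genes were called in the PFC, all lower, where 4.72% of all genes were called (2.34% higher, 2.39% lower). After psilocybin 8 were called, all lower, where 5.96% of all genes were called (3.26% higher, 2.7% lower). No member was called higher in either. In the hypothalamus 0 members were called after saline (0.685% of all genes called, 0.522% lower) and 0 after psilocybin (1.16%, 0.743% lower) by edgeR, with 5 at an unadjusted p under 0.05 in each (8.09% and 17.4% of all genes). DESeq2 called 0 and 1 in those hypothalamus comparisons (0.912% and 2.36% of all genes), and voom with quality weights 7 and 7 (7.25% and 3.29%).

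Most of the 33 log2 differences were below 0 in the PFC, 27 after saline (median -0.20) and 30 after psilocybin (median -0.28), against medians near 0 over all genes (0.0040 and -0.0080). Within cages 1 to 4 the PFC medians of the 33 were -0.36 after saline and -0.40 after psilocybin, and within cages 5 to 8 they were -0.01 after saline, with 21 below 0, and -0.18 after psilocybin, with 28 below 0. Without PFC saline 3 h replicates 3, 4 and 5 the saline median was -0.12. In the hypothalamus 23 and 20 were below 0 (medians -0.06 and -0.02). By role in the PFC after psilocybin, the metal group had the lowest median (-0.59, 2 of 4 called) and the transmitter group the highest (-0.08, 1 of 6 called). The identity group had a median of -0.32 (1 of 6 called), the ion and water group -0.27 (2 of 7), the receptors -0.29 (1 of 3), the secreted group -0.35 (1 of 5) and metabolism -0.31 (0 of 2).

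Gjb6 (chr14:57123303-57133281, minus strand), whose product forms gap junction channels between astrocytes, was the most clearly lower. It was at 67.9, 124 and 156 CPM (lowest, median, highest) in PFC saline 3 h and 54.7, 69.1 and 115 CPM in PFC saline 4 weeks. After psilocybin it was at 96.8, 139 and 161 CPM at 3 h and 55.6, 79.6 and 98.2 CPM at 4 weeks, where the groups overlapped only slightly. The log2 difference was -0.62 ± 0.123 after saline (adjusted p = 0.000811) and -0.81 ± 0.129 after psilocybin (adjusted p = 1.97e-05). It was called in all 16 fits that left out 1 PFC saline library and in all 15 that left out 1 PFC psilocybin library. Within cages 1 to 4 and cages 5 to 8 the saline values were -0.72 (adjusted p = 0.0211) and -0.51 (adjusted p = 0.203), and the psilocybin values -0.97 and -0.70 (both called). In the hypothalamus Gjb6 was at 90.7, 122 and 134 CPM in saline 3 h and 78.5, 83.0 and 98.7 CPM in saline 4 weeks, a log2 difference of -0.42 ± 0.127 that was not called (adjusted p = 0.128). After psilocybin the hypothalamus value was -0.40 ± 0.123 (adjusted p = 0.0831).

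**Figure D3:**
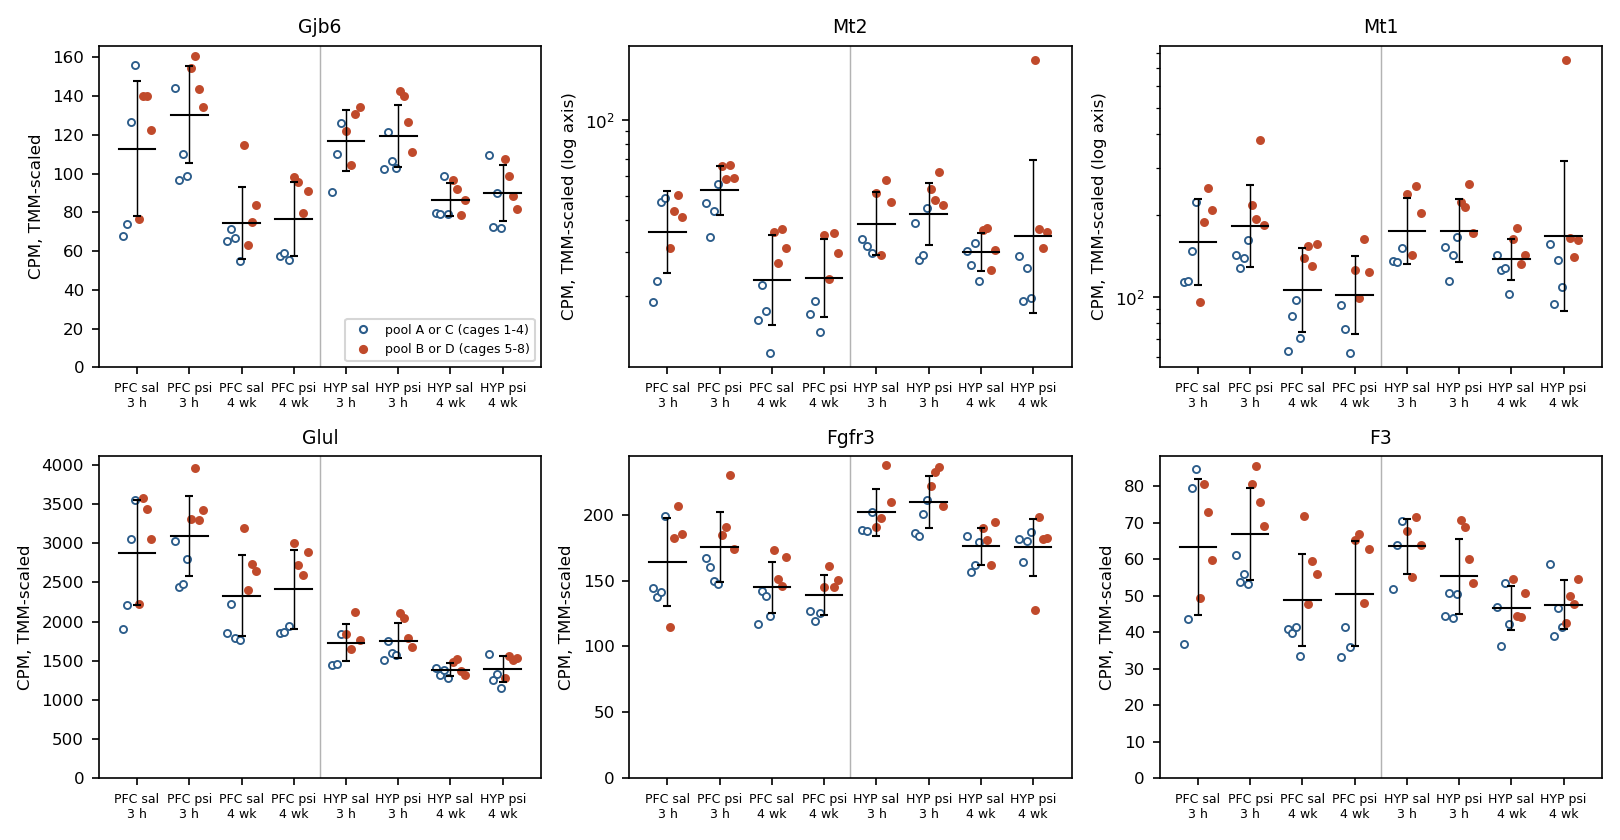
TMM-scaled CPM of Gjb6, Mt2, Mt1, Glul, Fgfr3 and F3 in each library of the 8 groups (x axis; HYP, hypothalamus; sal, saline; psi, psilocybin), with open points for pools A and C and filled points for pools B and D. Lines and bars are the mean and SD of CPM, or of log2 CPM in the panels of Mt1 and Mt2, which have log axes. Means of Gjb6, Glul and F3 are lower at 4 weeks in both regions, and 1 library of hypothalamus psilocybin 4 weeks stands far above the rest in Mt1 (750 CPM) and Mt2 (172 CPM).

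Glul was at 1900, 3054 and 3571 CPM in PFC saline 3 h and 1768, 2315 and 3196 CPM in PFC saline 4 weeks, with overlap. Its log2 difference was -0.33 ± 0.0904 after saline (adjusted p = 0.0216) and -0.40 ± 0.0941 after psilocybin (adjusted p = 0.00505). In the hypothalamus the values of Glul were -0.30 (adjusted p = 0.15) and -0.33 (adjusted p = 0.054), that of F3 after saline was -0.44 (adjusted p = 0.0989) and that of Fgfr3 after psilocybin was -0.26 (adjusted p = 0.0962), none of them called. F3 was at 36.8, 66.3 and 84.6 CPM in PFC saline 3 h and 33.6, 44.5 and 71.7 CPM in PFC saline 4 weeks, a log2 difference of -0.41 ± 0.122 (adjusted p = 0.0332), and -0.45 ± 0.127 after psilocybin (adjusted p = 0.0206).

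The saline calls of Glul and F3 were less firm than that of Gjb6. With the cage as a replicate block they were lost (adjusted p = 0.0557 for Glul and 0.068 for F3), leaving 1 member called, Gjb6. Within cages 1 to 4 both were called (Glul -0.49, F3 -0.65), and within cages 5 to 8 neither was (both -0.16). Leaving out PFC saline 3 h replicate 3 or 4, PFC saline 4 weeks replicate 4, or PFC saline 3 h replicates 3, 4 and 5 together, also left only Gjb6, whereas without PFC saline 3 h replicate 5 13 members were called lower (7.25% of all genes called). Voom with quality weights called neither Glul nor F3 after saline, and voom without them called Glul alone of the pair.

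The 8 members lower in the PFC after psilocybin included the stress-responsive metallothionein genes, whose products bind zinc and copper. Mt2 (chr8:94172664-94173564, plus strand) was at 34.4, 56.9 and 66.0 CPM in PFC psilocybin 3 h and 14.5, 23.3 and 35.6 CPM in PFC psilocybin 4 weeks. The ranges touched only at their ends, and the log2 difference was -1.19 ± 0.249 (adjusted p = 0.00149). Mt1 (chr8:94179082-94180327, plus strand) was at 128, 173 and 380 CPM and 62.2, 99.1 and 164 CPM, a log2 difference of -0.91 ± 0.232 (adjusted p = 0.0116). Neither was called after saline, at -0.65 ± 0.222 for Mt1 (adjusted p = 0.0785) and -0.69 ± 0.237 for Mt2 (adjusted p = 0.0821), although both were called lower there without hypothalamus psilocybin 4 weeks replicate 5 and with voom and quality weights, and the difference between treatments was not called (Mt2 log2 -0.50, interval -1.16 to 0.17).

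Mt1, Mt2 and Mt3 lie next to each other on chromosome 8, and their promoters are shown because the first 2 are textbook targets of the metal-responsive factor MTF-1 and of the glucocorticoid receptor. Each line gives 250 bases before and 30 bases from the RefSeq start in GRCm38.p6, all on the plus strand. Capitals mark matches, on either strand, to the metal response element core (TGCGCNC or TGCACNC) and to the full palindromic glucocorticoid response element, and no matches overlapped. The windows are chr8:94178839-94179118 (Mt1), chr8:94172368-94172647 (Mt2) and chr8:94152357-94152636 (Mt3).
Mt1: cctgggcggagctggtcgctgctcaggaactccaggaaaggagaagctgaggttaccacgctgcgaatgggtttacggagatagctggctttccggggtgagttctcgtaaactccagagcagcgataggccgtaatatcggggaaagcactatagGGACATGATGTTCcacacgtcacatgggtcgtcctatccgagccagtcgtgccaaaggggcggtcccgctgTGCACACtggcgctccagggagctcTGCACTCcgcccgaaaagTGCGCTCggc
Mt2: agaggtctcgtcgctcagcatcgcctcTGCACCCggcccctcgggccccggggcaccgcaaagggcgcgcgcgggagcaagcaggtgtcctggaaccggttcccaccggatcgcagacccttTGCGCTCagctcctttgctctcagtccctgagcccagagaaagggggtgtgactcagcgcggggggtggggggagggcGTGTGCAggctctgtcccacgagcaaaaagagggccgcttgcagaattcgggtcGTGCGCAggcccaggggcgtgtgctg
Mt3: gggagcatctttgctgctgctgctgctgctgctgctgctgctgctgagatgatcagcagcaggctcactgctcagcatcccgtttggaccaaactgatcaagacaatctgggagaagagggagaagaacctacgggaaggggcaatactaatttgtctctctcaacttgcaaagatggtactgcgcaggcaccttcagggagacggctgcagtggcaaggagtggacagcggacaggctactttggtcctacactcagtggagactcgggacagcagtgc
Mt2 holds 4 metal cores, Mt1 holds 3 and 1 glucocorticoid element, and Mt3 holds none of either. Among 32851 promoter windows of this length, 24.1% hold at least 1 metal core, 1.73% at least 3, 0.405% at least 4 and 0.435% the glucocorticoid element. Of the 28 members with a promoter in the table, none other than Mt1 holds the glucocorticoid element. Slc6a11, Slc6a9 and Slc7a10 hold 2 metal cores in a window, and Glul and Slc4a4 hold 1. The metal cores of Mt1 begin 23 bases before and 2 and 20 bases after its RefSeq start, and bases beyond the window were not searched. A match describes the letters only, and for Mt2 the RefSeq start lies upstream of the start in the count table.

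The other genes lower in the PFC after psilocybin were a growth factor receptor gene and genes of cell contact and folate metabolism. Fgfr3 was at 148, 171 and 230 CPM at 3 h and 119, 145 and 161 CPM at 4 weeks (log2 -0.35 ± 0.084, adjusted p = 0.00593). Hepacam (log2 -0.28 ± 0.0852, adjusted p = 0.0346) and Aldh1l1 (-0.35 ± 0.105, adjusted p = 0.0366) were each called in 8 of the 15 fits that left out 1 library. Gjb6, Glul, Fgfr3, Mt1 and Mt2 were called in all 15 and F3 in 12. Within cages 1 to 4 Glul, Mt2 and Gjb6 were called, and within cages 5 to 8 only Gjb6.

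The regions were compared directly by the difference of their saline time effects, and 0 members were called by edgeR (0.0369% of all genes, 0.00527% higher), with 1 at an unadjusted p under 0.05, as were 5.84% of all genes (Clu, log2 -0.37 ± 0.180, adjusted p = 0.846). Beside the members, 12 glucocorticoid target genes were all below 0 in the 4 time comparisons, with 8 called lower in the PFC and 6 in the hypothalamus after either injection. Fkbp5, a chaperone gene induced by glucocorticoids, fell by 0.86 on the log2 scale in PFC saline and Tsc22d3 by 0.82. Summed levels of 10 metal response genes had medians of 434 CPM in PFC saline 3 h and 422 CPM in PFC saline 4 weeks. After psilocybin these medians were 449 and 418 CPM. Whether glucocorticoids or metals had a part in the time differences of the members was not tested. Such a part cannot be told apart from age and handling. Of 26 further astrocyte genes 4 were lower in the PFC after saline and 7 after psilocybin, and 2 in the hypothalamus after either, among them Fam107a, itself a glucocorticoid-responsive gene, in all 4. Of 17 reactive astrocyte genes tested, 1 was lower in the PFC after psilocybin and 0 were called in the other 3 comparisons at the same threshold. In PFC saline, 8 of 8 striatal genes were above 0 (median 0.76) and 10 of 10 meningeal and blood genes below 0 (median -0.34), none called, and their part in the result was not tested.

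The third comparison was psilocybin against saline within each region and time. None of the 33 astrocyte genes was called by edgeR in any of the 4 comparisons. In that fit 0.0105% of all genes were called in the PFC at 3 h (0.00527% higher, 0.00527% lower) and 0% in the other 3. By edgeR 2 members had an unadjusted p under 0.05 in the PFC at 3 h, 0 in the PFC at 4 weeks, 0 in the hypothalamus at 3 h and 4 in the hypothalamus at 4 weeks, where the shares of all genes were 7.23%, 2.4%, 1.78% and 9.61%. DESeq2 also called 0 members in each. The medians of the 33 log2 differences were 0.05, -0.02, 0.02 and 0.03.

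In the PFC at 3 h the members with the smallest p were Id4, Mt2 and Sox9. Id4 was at 45.9, 81.7 and 151 CPM after saline and 64.3, 116 and 181 CPM after psilocybin, and the groups overlapped widely. Its log2 difference was 0.36 ± 0.178 (95% interval 0.013 to 0.71, adjusted p = 0.687). Mt2 was at 19.0, 42.3 and 50.4 CPM after saline and 34.4, 56.9 and 66.0 CPM after psilocybin (log2 0.47 ± 0.234, interval 0.016 to 0.93, adjusted p = 0.687). Sox9 differed by 0.21 (interval -0.0013 to 0.42, adjusted p = 0.706).

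This comparison depended on how libraries of low quality weight were handled. Voom with quality weights is the type of fit that the study's methods name. With it 3 members were called higher after psilocybin in the PFC at 3 h, Mt2 (0.65), Id4 (0.62) and Bmpr1b (0.37). In a fit without the 5 libraries of lowest weight, chosen after the values were seen, 10 were called higher, namely Mt2 (0.77), Id4 (0.81), Bmpr1b (0.50), Aqp4 (0.46), Gja1 (0.40), Gjb6 (0.38), F3 (0.30), Slc39a12 (0.27), Slc1a2 (0.23) and Glul (0.23). That fit called 17.6% of all genes and the voom fit 6.49%. With only PFC saline 3 h replicates 3, 4 and 5 left out, 0 members and 0.108% of all genes were called by edgeR, 9 members and 14.6% of all genes had an unadjusted p under 0.05, and the median of the 33 genes was 0.14. The former kept 5 of 8 saline and 7 of 8 psilocybin libraries, and left out PFC saline 3 h replicates 3 and 4, the pool C libraries of that group with the highest astrocyte levels, and replicate 5, the only pool D library with a low level. Within cages 1 to 4 and 5 to 8 the medians of the 33 genes were -0.02 and 0.16, with 0 members called in each.

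**Figure D4:**
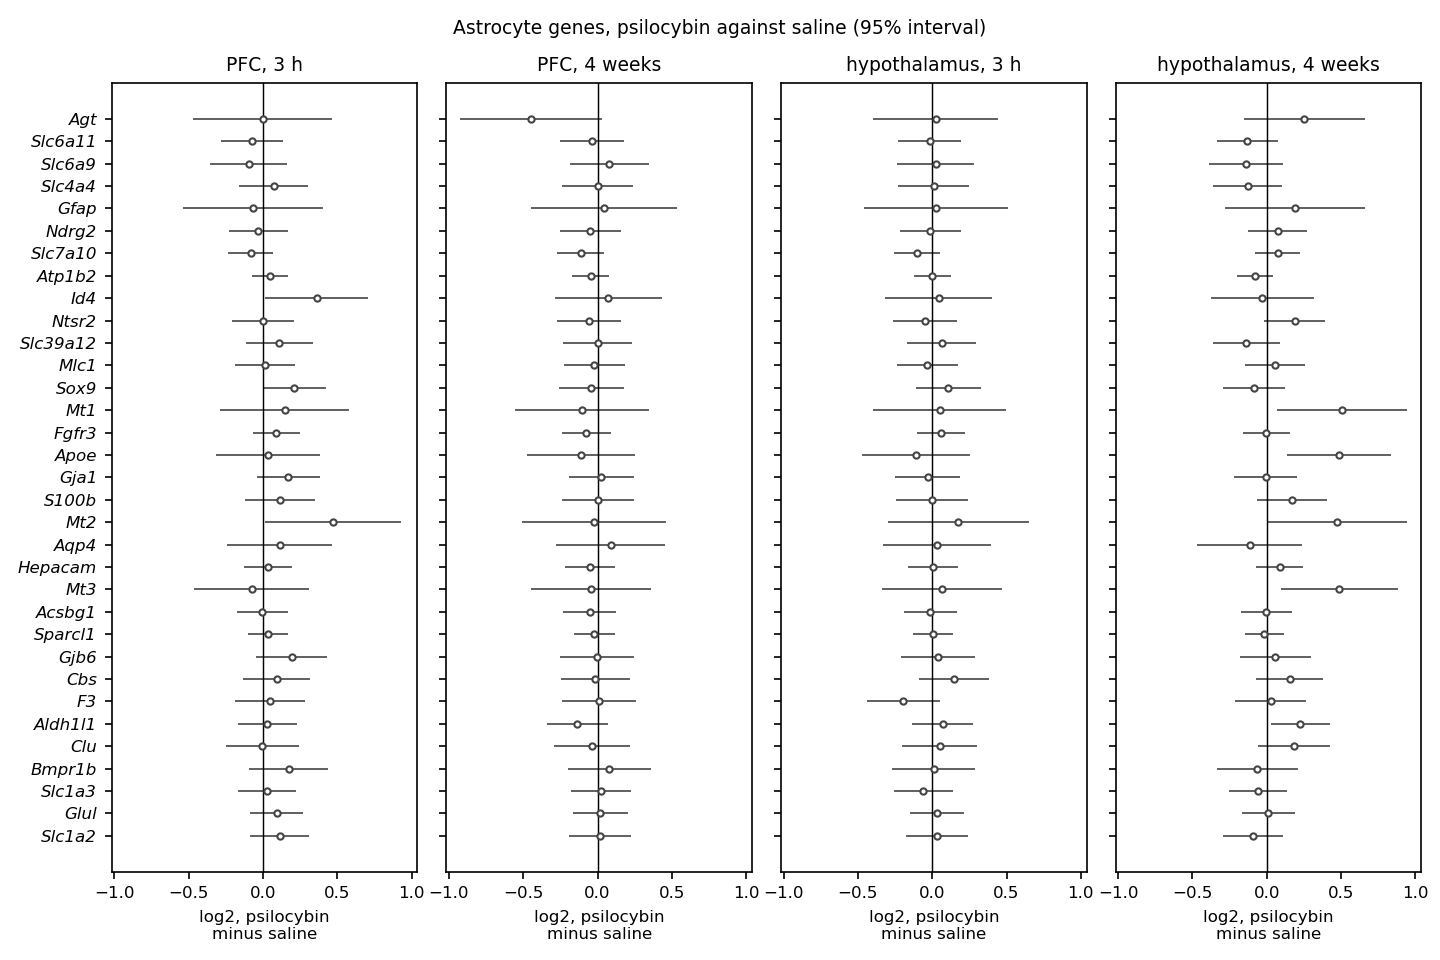
Log2 difference of psilocybin minus saline (x axis) for each of the 33 genes (y axis) in the PFC and hypothalamus at 3 h and 4 weeks, with bars for 95% intervals. No gene has an adjusted p under 0.05, and the points range from -0.45 (Agt, PFC at 4 weeks) to 0.51 (Mt1, hypothalamus at 4 weeks).

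At 4 weeks in the PFC, Agt had the smallest p among the members, at 4.56, 8.42 and 22.6 CPM after saline and 3.69, 8.57 and 13.5 CPM after psilocybin (log2 -0.45 ± 0.244, interval -0.92 to 0.032, adjusted p = 1). The highest value was that of PFC saline 4 weeks replicate 3, without which the log2 difference of Agt was -0.0082 ± 0.199. Slc7a10 (-0.11, interval -0.27 to 0.044) and Aldh1l1 (-0.14, interval -0.34 to 0.070) followed. In the hypothalamus at 3 h these were F3 (-0.20, interval -0.44 to 0.050), Slc7a10 (-0.10, interval -0.26 to 0.050) and Cbs (0.15, interval -0.087 to 0.38).

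In the hypothalamus at 4 weeks the smallest p belonged to Apoe (0.48 ± 0.179, adjusted p = 0.448), Mt3 (0.49 ± 0.200, adjusted p = 0.449) and Mt1 (0.51 ± 0.223, adjusted p = 0.455), none of them called. Apoe was at 1188, 1472 and 1937 CPM after saline and 1209, 1726 and 5915 CPM after psilocybin. The highest value was that of replicate 5, and the other 7 psilocybin libraries were at 1209 to 2052 CPM, close to the saline range. Without that library the log2 differences of Apoe, Mt3 and Mt1 were 0.15, -0.02 and 0.01.

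Tests of whether the psilocybin difference changed between regions or times called 0 members each by edgeR, with 0 members at an unadjusted p under 0.05 between regions at 3 h, 3 between regions at 4 weeks, 0 between times in the PFC and 1 between times in the hypothalamus (2.78%, 6.69%, 3.08% and 5.27% of all genes). The smallest p among them was that of Aldh1l1 for PFC minus hypothalamus at 4 weeks (log2 -0.36 ± 0.146, adjusted p = 0.737).

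A further comparison, between extraction pools, was added after the data were seen. Astrocyte genes were higher in pool D than in pool C of the PFC, with all 33 above 0 and 31 called higher (24.9% of all genes called, 13.4% higher), and Slc6a9 and Slc7a10 not called. In the hypothalamus 15 of the 33 were higher in pool B than in pool A (17.4% of all genes called, 9.79% higher) and 32 were above 0. The median log2 difference was 0.39 in the PFC and 0.22 in the hypothalamus, and the difference between the regions was called for 0 members (0.606% of all genes).

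Gfap had the largest pool difference in the PFC, and in the hypothalamus it was level with Mt2. In the PFC it was at 86.8, 125 and 391 CPM in the 15 libraries of pool C and 98.8, 304 and 415 CPM in the 16 of pool D (log2 1.02 ± 0.178, adjusted p = 5.78e-05). In the hypothalamus it was at 195, 260 and 622 CPM in pool A and 297, 487 and 671 CPM in pool B (log2 0.73 ± 0.175, adjusted p = 0.00437). The medians were well apart in both regions while the ranges overlapped. Acsbg1 had the smallest p in the PFC (log2 0.42 ± 0.0634, adjusted p = 8.03e-06) and S100b in the hypothalamus (0.44 ± 0.0865, adjusted p = 0.000852). The metallothionein genes followed the same direction, with Mt1 at 0.67 and 0.70 and Mt2 at 0.63 and 0.73 in PFC and hypothalamus. Without hypothalamus psilocybin 4 weeks replicate 5, a pool B library, the hypothalamus values were 0.46 for Mt1 and 0.47 for Mt2 (adjusted p = 0.00601 and 0.00468).

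**Figure D5:**
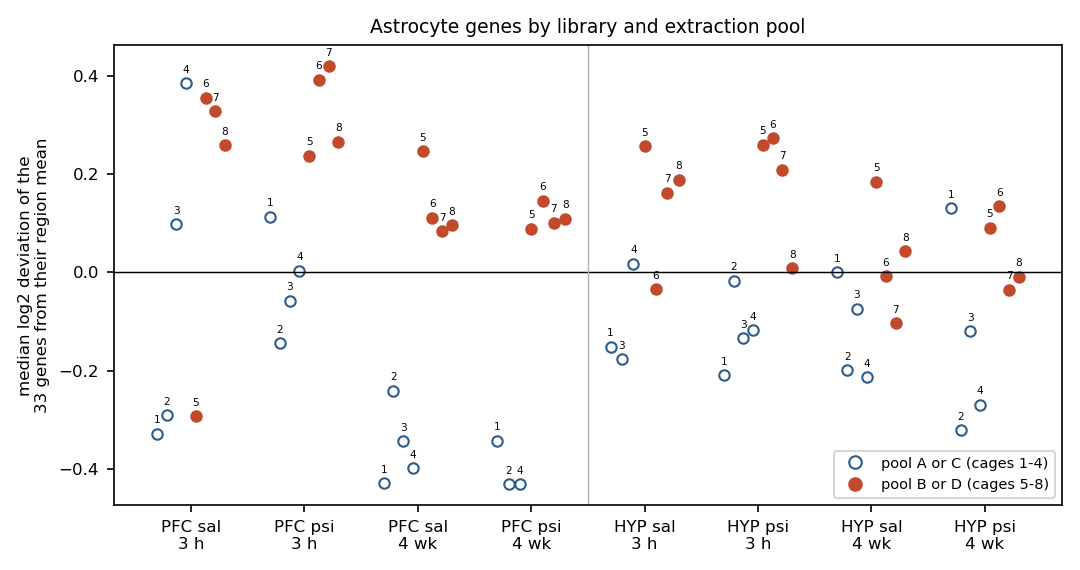
Median log2 deviation of the 33 genes from their mean in the region (y axis) for each library, by group (x axis; HYP, hypothalamus; sal, saline; psi, psilocybin), with open points for pools A and C, filled points for pools B and D and the replicate number at each point. Pool D libraries are above 0 in 15 of 16 cases and pool C libraries in 4 of 15, and the exceptions are PFC saline 3 h replicates 3, 4 and 5 and PFC psilocybin 3 h replicates 1 and 4.

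Summed over the members as a median deviation from the regional mean, 15 of 16 pool D libraries and 11 of 16 pool B libraries were above 0, against 4 of 15 in pool C and 3 of 15 in pool A. The 4 of pool C were PFC saline 3 h replicates 3 and 4 (0.10 and 0.38) and PFC psilocybin 3 h replicates 1 and 4 (0.11 and 0.0031), and the pool D library below 0 was PFC saline 3 h replicate 5 (-0.29). In PFC saline 4 weeks every library of cages 5 to 8 was higher than every library of cages 1 to 4 for 25 of the 33 genes (9.37% of all genes), in PFC psilocybin 4 weeks for 28 (13.2%), in PFC psilocybin 3 h for 16 (5.46%) and in PFC saline 3 h for 0 (0.643%). In the hypothalamus this held for 6 genes in saline 3 h (7.22%), 2 in saline 4 weeks (2.3%), 14 in psilocybin 3 h (6.81%) and 1 in psilocybin 4 weeks (2.46%). With pool D, 12 of 12 microglia, 11 of 12 oligodendrocyte, 10 of 10 meningeal and blood and 8 of 8 striatal genes were also higher, and 3 of 12 neuronal genes lower. With pool B, 10 of 12 microglia and 10 of 12 ependymal and tanycyte genes were higher. Summed microglia levels ran from 514 to 979 CPM in pool C (median 565) and 534 to 937 CPM in pool D (median 815), and what part these cell types or the dissection had in the astrocyte differences was not tested.

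Within a region, pairs of the 33 genes were compared by the deviations of their log2 levels from group and pool. Across the 31 PFC libraries the median Pearson correlation over the 528 pairs of members was 0.61, with 486 pairs above 0, against a median of 0.000 over all pairs of genes tested. Across the 31 hypothalamus libraries it was 0.40, with 387 above 0 and the lowest at -0.88, against -0.001 over all pairs. The values share libraries and are given as a description. Without hypothalamus psilocybin 4 weeks replicate 5 the hypothalamus median was 0.50, with 479 pairs above 0 and the lowest at -0.47. Mt1 and Mt3 correlated at 0.91 in the PFC, Apoe and Clu at 0.90 there, and Mt1 and Mt2 at 0.97 in the hypothalamus (0.91 without that library). For single genes, the same deviations in the PFC and hypothalamus of the same mouse had a median correlation of 0.02 over the 33 genes and 0.02 over all genes (30 mice), from -0.19 for Bmpr1b to 0.31 for Fgfr3.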

How the data were processed

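RNA from flash-frozen PFC and whole hypothalamus was made into stranded poly-A libraries and sequenced as 52-bp paired ends. The deposited file is a table of raw read counts per gene, which the authors made with bcl2fastq 2.20.0, STAR 2.7.2b and featureCounts 1.6.2 on GRCm38 with GENCODE vM25. By the study's methods a pair was counted where its ends lay on 1 strand, and whether reads were assigned by the strand of the gene is not given in the sources used here. Gene names matched 55141 of the 55401 identifiers.

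Libraries under 1000000 counts were left out, namely hypothalamus saline 3 h replicate 2 (211111) and PFC psilocybin 4 weeks replicate 3 (200066). The study's methods also dropped a library rich in wound and immune genes. Here hypothalamus psilocybin 4 weeks replicate 5 was taken as that library, kept, and left out as an alternative. Of 210 pairs of libraries within groups, 0 were identical. edgeR 4.0.16 in R 4.3.3 was used with its filter on low counts (minimum 10), TMM scaling and robust quasi-likelihood fits of group and extraction pool over 62 libraries and 18971 genes, with Benjamini-Hochberg adjustment over all genes and a threshold of 0.05. SEs were the log2 difference divided by the root of F. Correlations used deviations of log2 levels (prior count 0.5) from group and pool. CPM values were TMM-scaled. Groups came from the sample labels, where the replicate number is the cage. Deviations of same-numbered PFC samples correlated at 0.067 on average and those of hypothalamus samples at 0.061, and at -0.034 and -0.024 after removal of the pool. DESeq2 1.42.0, limma 3.58.1 with voom, other scalings and filters, blocks, fits within cages 1 to 4 or 5 to 8 and the omission of single libraries were alternatives. The fit was tested on simulated data for 4 weeks against 3 h in PFC saline (18805 genes), where 54 of 100 genes changed by 0.5 on the log2 scale and 72 of 100 changed by 1 were recovered. The members and gene lists were chosen with earlier results of these data known. All 33 members are named. Values are given for every member called in the time and psilocybin comparisons, the 3 with the smallest p there, and, between regions, the 5 with the largest and 5 with the smallest mean log2 difference and those not called the same way in all 4 sets. From other lists at most the 3 genes with the smallest p in a comparison are named. Promoters came from RefSeq for GRCm38.p6. Each sample came from a separate mouse, apart from the sharing of mice between regions.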

Additional observations from a re-analysis of the deposited data

Results flagged for a closer look

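Single libraries stood far from the rest of their group, by the gap to the nearest library relative to the group's range, in 15 of 264 combinations of gene and group tested. Chance gives about 1 in 20. Hypothalamus psilocybin 4 weeks replicate 5 accounted for 14 of them. It was the highest of its group for Apoe (5915 CPM), Clu (2199 CPM), Mt1 (750 CPM), Mt2 (172 CPM), Mt3 (975 CPM), Agt (667 CPM), Ntsr2 (358 CPM) and Slc7a10 (73.0 CPM). It was the lowest for Slc1a3 (512 CPM), Slc6a11 (466 CPM), Slc6a9 (20.7 CPM), Slc4a4 (127 CPM), Fgfr3 (127 CPM) and Slc39a12 (39.2 CPM). Slc6a11 was also low in hypothalamus psilocybin 3 h replicate 1, at 841 CPM.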

How the results depend on the processing

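The counts of members called between regions were 9, 9, 10 and 11 with Bonferroni adjustment in saline 3 h, saline 4 weeks, psilocybin 3 h and psilocybin 4 weeks, 12 in saline 3 h within cages 1 to 4 and 13 in saline 4 weeks within cages 5 to 8. For 4 weeks against 3 h in PFC saline the count of 3 became 0 with Bonferroni adjustment, with only the 2 groups compared or within cages 5 to 8, and 1 with no filter, with no pool, with the cage as replicate block or without PFC saline 3 h replicates 3, 4 and 5. It was 6 without the wound and immune library or without the 5 libraries of lowest weight (there with Slc4a4 higher, and Glul and F3 no longer called), and 1 to 13 with single libraries left out. In PFC psilocybin the count of 8 became 1 with Bonferroni adjustment, 5 with no filter, 3 with no pool, 17 without the wound and immune library, 16 with only the 2 groups, 3 and 1 within cages 1 to 4 and 5 to 8, 18 without the 3 PFC saline libraries, 23 without the 5 of lowest weight, 22 with voom and weights (the 17, 23 and 22 each with Slc6a9 called higher), and 5 to 8 with single libraries left out, where 5 remained without PFC psilocybin 4 weeks replicate 1 or 4. The cage block kept 8 there. In hypothalamus saline the count of 0 became 3 with only the 2 groups, 3 without the 3 PFC saline libraries, 4 without the 5 of lowest weight and 7 with voom and weights. In hypothalamus psilocybin it became 1 with no filter, with DESeq2 or with voom without weights, 3 without the 3 PFC saline libraries, 4 without the 5 of lowest weight, 7 with voom and weights, and 0 to 2 with single libraries left out. For psilocybin in the PFC at 3 h the count of 0 became 10 without the 5 libraries of lowest weight and 3 with voom and weights. The pool counts of 31, 15 and 0 (D against C, B against A, and their difference) became 7 and 0 with Bonferroni adjustment for the first 2. B against A became 25 without the 5 of lowest weight and 31 with voom and weights, and the difference 17 and 12 in those fits and 8 without the 3 PFC saline libraries. The share of all genes called also differed between these fits. In PFC psilocybin it was 11.3% without the wound and immune library, 7.85% with only the 2 groups, 7.93% without the 3 PFC saline libraries, 17.9% without the 5 of lowest weight and 19.1% with voom and weights, against 5.96%, and in PFC saline 8.32% and 8.31% without the wound and immune library and the 5 of lowest weight, against 4.72%. In the hypothalamus after saline it was 3.98% with only the 2 groups, 0.819% without the 3 PFC saline libraries, 2.13% without the 5 of lowest weight and 7.25% with voom and weights, and after psilocybin 1.68%, 1.6% and 3.29% in the last 3 of these. For B against A it was 19.9% without the 5 of lowest weight and 34.8% with voom and weights. The cause was not tested for any of these. For the counts between regions, and for those of the difference of the pools, the shares of all genes in the alternative fits are not given here. Those counts therefore cannot be set against all genes.

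Some values turned sign. Mt3 for psilocybin in the hypothalamus at 4 weeks turned from 0.49 to -0.021 without replicate 5 (with single libraries left out, -0.021 to 0.57), to -0.059 within cages 1 to 4, to -0.023 without the 5 of lowest weight and to -0.088 with voom and weights. Mt1 turned from 0.51 to -0.0070 within cages 1 to 4 and -0.065 with voom and weights. Between regions, Bmpr1b turned in saline 3 h to -0.071 without the 3 PFC saline libraries and -0.073 without the 5 of lowest weight, to -0.12 in saline 4 weeks and -0.042 in psilocybin 4 weeks within cages 1 to 4. Clu in saline 4 weeks (0.0034) ran from -0.037 to 0.039 with single libraries left out and was -0.044 with RLE scaling or DESeq2, -0.040 with no filter, -0.014 with at least 10 counts in every library, -0.20 within cages 1 to 4 and -0.017 with voom and weights, and in psilocybin 4 weeks it was 0.034 with voom and weights. Hepacam in saline 4 weeks, the only called value to turn, was 0.0039 within cages 5 to 8. For the time effect in saline between regions, Mlc1 was 0.058 within cages 5 to 8 and Agt (0.46) ran from -0.028 to 0.66 with single libraries left out. Depth limits Agt in the PFC most, the member with the lowest CPM.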
